A study of Mus musculus with 35 samples.

Results

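The regions described here were stretches of the mouse genome that carried an H3K4me1 peak in every library of the series and no peak of H3K4me3 or H3K27ac in any library. They were found by merging the peaks of the 10 H3K4me1 lists and keeping each merged region that had a peak in all 10 lists and overlapped, by at least 1 bp, no peak of the 20 lists of the other marks. Of 199848 merged regions, 47001 (23.5%) had a peak in all 10 lists, 12997 of these overlapped no H3K4me3 peak, and 9535 of those overlapped no H3K27ac peak either. These 9535 regions, 4.77% of all merged regions and 17.1 Mb in sum, are called constant unacetylated regions below. They were chosen by the presence and absence of peaks, so these values are given as a description and not tested.

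Chromatin immunoprecipitation with sequencing (ChIP-seq) had been run on bone marrow cells of C57BL/6 mice, in 2 biological replicates for each of 5 cell groups and 3 histone marks. Of the groups, 4 were haematopoietic stem and progenitor cells depleted of lineage-marked cells (HSPC), from mice labelled WT, Npm1c, Flt3-ITD or DM; the last was WT neutrophils (Neu). Npm1c is the leukaemia-associated cytoplasmic mutant of nucleophosmin and Flt3-ITD is the internal tandem duplication of the receptor tyrosine kinase gene Flt3. The labels do not spell out DM; it is taken to mean mice with both alleles. The sources used here give no ages and no promoter or Cre line for the alleles. Both cell types were isolated with kits, so each HSPC group is a mixture of stem and progenitor cells.

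H3K4me1 is laid down at enhancers and around promoters, H3K4me3 at active or poised promoters, and H3K27ac at enhancers and promoters in use. An enhancer with H3K4me1 and without H3K27ac is usually called primed: it is marked but not in an active state. Primed sites can be inherited from an earlier stage, kept for a later one, or left over after use.

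The labelled cell types were checked by H3K27ac at marker genes (gene span with 10 kb on each side). All 8 HSPC markers had H3K27ac in both libraries of the WT, Npm1c and Flt3-ITD groups and 7 in DM, where Gata2 had none. In neutrophils 6 of the 8 HSPC markers had none, and 8 of 9 neutrophil markers had H3K27ac in both libraries, with Ly6g at 0. The neutrophil markers S100a8, S100a9, Ly6g, Mmp9, Ltf, Camp and Retnlg had none in any HSPC library. The summed length over the neutrophil list was 0 to 2.40 kb in HSPC and 23.0 kb or more in neutrophils. Erythroid markers had H3K27ac in both libraries at 4 of 5 genes in WT, Npm1c and Flt3-ITD and at 2 in DM and neutrophils. Their summed length was 8.8 to 9.0 kb in WT and 2.1 to 3.1 kb in DM. Monocyte and macrophage markers had it at 2 of 4 in every group. Their length was 0.85 to 1.3 kb in WT and 3.4 to 7.6 kb in DM. B-cell markers had it at 1 of 5 in each HSPC group, and T and NK markers at 2 of 5. A difference in cell mixture between genotypes was not tested. Peak numbers per library were 102907 to 131179 for H3K4me1 on chromosomes 1 to 19, X and Y; read depth is unknown because the files hold coordinates only.

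Among the regions were 65 promoters of protein-coding genes that lay wholly inside a region. At such sites a merged H3K4me1 region without H3K4me3 spanned an annotated start. The peak of a single library need not cover that start, as the centres given below show. The 250 bases before the start are shown for 9 of them, chosen after their values were seen: genes of T and natural killer cells (Cd3d, Cd3g, Lck, Prf1, Il2), inflammatory genes (Il1a, Cxcl9) and genes of liver (Slc10a1, Foxa3). They show what the start looks like at such sites. Capitals mark each CG dinucleotide, and sequences are from RefSeq, assembly GRCm38.p6, 5′ to 3′ on the strand of the gene.
Cd3d: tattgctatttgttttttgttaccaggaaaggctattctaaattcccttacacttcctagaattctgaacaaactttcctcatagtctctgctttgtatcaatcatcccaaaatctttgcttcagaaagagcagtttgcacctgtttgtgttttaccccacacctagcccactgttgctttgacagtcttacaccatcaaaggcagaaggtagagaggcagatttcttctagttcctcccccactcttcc
Cd3g: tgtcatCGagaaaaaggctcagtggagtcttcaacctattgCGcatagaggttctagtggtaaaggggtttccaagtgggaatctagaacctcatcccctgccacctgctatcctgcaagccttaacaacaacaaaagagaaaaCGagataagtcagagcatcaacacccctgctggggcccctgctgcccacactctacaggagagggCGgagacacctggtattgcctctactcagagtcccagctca
Lck: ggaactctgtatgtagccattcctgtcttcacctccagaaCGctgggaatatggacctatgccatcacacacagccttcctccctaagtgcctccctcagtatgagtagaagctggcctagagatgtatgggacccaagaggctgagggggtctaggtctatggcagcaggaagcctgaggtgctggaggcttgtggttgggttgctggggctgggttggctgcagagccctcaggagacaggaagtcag
Prf1: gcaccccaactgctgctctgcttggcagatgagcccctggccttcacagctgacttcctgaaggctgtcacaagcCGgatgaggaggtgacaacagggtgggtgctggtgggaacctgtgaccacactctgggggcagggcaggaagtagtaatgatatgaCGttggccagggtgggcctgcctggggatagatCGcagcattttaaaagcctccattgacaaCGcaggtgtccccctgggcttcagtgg
Il2: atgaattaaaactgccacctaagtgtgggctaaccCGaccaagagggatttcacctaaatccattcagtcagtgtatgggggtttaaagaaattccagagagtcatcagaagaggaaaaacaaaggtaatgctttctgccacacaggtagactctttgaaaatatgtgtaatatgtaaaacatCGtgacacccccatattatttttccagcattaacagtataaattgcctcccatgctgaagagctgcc
Il1a: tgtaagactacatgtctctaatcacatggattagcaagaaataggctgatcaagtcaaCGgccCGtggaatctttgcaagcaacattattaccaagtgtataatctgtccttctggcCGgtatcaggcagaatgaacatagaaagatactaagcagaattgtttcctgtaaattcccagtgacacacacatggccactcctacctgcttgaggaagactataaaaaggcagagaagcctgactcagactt
Cxcl9: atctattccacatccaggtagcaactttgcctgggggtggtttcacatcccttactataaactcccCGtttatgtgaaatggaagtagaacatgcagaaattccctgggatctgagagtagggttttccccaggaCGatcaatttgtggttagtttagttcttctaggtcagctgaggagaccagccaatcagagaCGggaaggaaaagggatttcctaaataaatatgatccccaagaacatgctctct
Slc10a1: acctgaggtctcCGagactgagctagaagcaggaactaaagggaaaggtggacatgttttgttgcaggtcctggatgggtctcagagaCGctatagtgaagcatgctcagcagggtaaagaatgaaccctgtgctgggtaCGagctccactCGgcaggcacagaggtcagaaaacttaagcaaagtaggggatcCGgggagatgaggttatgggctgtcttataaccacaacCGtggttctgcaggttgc
Foxa3: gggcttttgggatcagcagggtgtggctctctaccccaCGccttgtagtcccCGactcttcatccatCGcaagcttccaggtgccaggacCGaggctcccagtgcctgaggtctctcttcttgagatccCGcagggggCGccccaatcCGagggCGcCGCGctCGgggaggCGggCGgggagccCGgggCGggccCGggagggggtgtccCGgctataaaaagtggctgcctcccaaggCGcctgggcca

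The printed stretches of Cd3d and Lck held 0 and 1 CG dinucleotides, and those of Il2, Il1a and Cxcl9 held 2, 3 and 3. Cd3g and Prf1 had 4 each and Slc10a1 had 6. Foxa3, with 18, was the exception, and its promoter was rich in G and C (68.8%). Low CG content was the common form: among all 248 promoters (250 bases before to 50 after the start) that overlapped a constant unacetylated region, the median ratio of observed to expected CG was 0.200, against 0.383 over all 32817 promoters in the table and 0.782 over the 10183 promoters under H3K4me3 in all 10 libraries. Of the 101 protein-coding promoters among them, 20.8% had a ratio above 0.6, against 47.6% of all protein-coding promoters and 79.0% of those under constant H3K4me3. The selection rule removed promoters with H3K4me3, so this difference is partly set by the rule.

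Cd3d and Cd3g, which encode chains of the T-cell receptor complex, are transcribed away from each other and shared 1 region (chr9:44979838-44982228). Relative to the Cd3d start (chr9, position at the end of the printed stretch), the mean peak centre lay at -998 and -1449 bp in WT HSPC, -1249 and -1278 in Npm1c, -181 and -246 in Flt3-ITD, -180 and -169 in DM, and -185 and -58 in neutrophils. The peak therefore sat near the Cd3g start in the WT and Npm1c libraries and near the Cd3d start in the others, and these sets did not overlap. The centre in DM lay 1049 ± 140 bp (SE) from that in WT (limma, Benjamini-Hochberg adjusted p = 0.0304), and those in neutrophils and Flt3-ITD lay 1102 and 1010 bp from it (limma adjusted p = 0.0112 and 0.0627). This region was singled out after its values were seen, and such calls were lost in other fits, as given with the tests of single regions.

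At Lck (chr4:129573642-129573891, minus strand), a kinase of T-cell receptor signalling, peak centres lay between -388 and 164 bp of the start in the 10 libraries, with a median of -177. At Prf1 (chr10:61297586-61297835, plus strand), which encodes perforin of cytotoxic cells, they lay between -455 and -185, all upstream. At Il2 (chr3:37125955-37126204, minus strand), the gene of the T-cell growth factor, they lay farther away, between -2470 and -766.5, with a median of -2371.5. The region that held the Il2 promoter thus carried most of its peaks upstream of it.

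At Slc10a1 (chr12:80968080-80968329, minus strand), the hepatocyte bile acid transporter gene, centres lay between -292 and 116 bp with a median of 41, on the start itself. At Foxa3 (chr7:19023540-19023789, minus strand), a forkhead factor gene of liver and gut, they lay between -255 and -183. At Il1a (chr2:129309973-129310222, minus strand), which encodes interleukin-1 alpha, they lay between -1063 and -287, with both DM libraries farthest out at -1063 and -1061. At Cxcl9 (chr5:92328080-92328329, minus strand), an interferon-induced chemokine gene, 9 of 10 values were downstream of the start and the other lay at -117.

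Motifs were counted by exact letters on both strands of the 300-base promoters. The AP-1 sequence TGACTCA occurred in 12.5% of promoters under a constant unacetylated region and in 5.20% of all promoters. The RUNX sequence TGTGGT occurred in 23.4% and 16.8%, the PU.1 sequence GAGGAAGT in 5.65% and 3.20%, and the GATA sequence AGATAA in 9.27% and 11.2%. TATAAA occurred in 16.1% and 13.6%, and the E-box CACGTG in 4.84% and 7.15%. Restricted to promoters with a CG ratio up to 0.6, AP-1 stood at 13.8% against 6.73%, RUNX at 23.6% against 20.7%, and GATA at 9.78% against 14.9%. The direction turned for TATAAA, at 16.9% against 17.9%, and for the E-box, at 5.33% against 4.87%. These are descriptions of letters in a window, not of binding.

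The 248 promoters belonged to 147 long non-coding RNA and 101 protein-coding transcripts, the latter from 98 genes. Ranked by overlap and then position, the first 6 were all of predicted long non-coding RNA genes on chromosome 1 (Gm33774, Gm38388, Gm33970, Gm36102, Gm41928 and Gm32670), each covered over all 300 bases and with 1 to 5 CG dinucleotides.

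Of 1005 microRNA hairpins in the RefSeq table, 7 lay under a constant unacetylated region. One was Mir148b, inside the gene Copz1 (region chr15:103284204-103286520), and its mature sequences are shown because it is a widely expressed microRNA; capitals mark the seed, bases 2 to 8.
mmu-miR-148b-5p: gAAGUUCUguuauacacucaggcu
mmu-miR-148b-3p: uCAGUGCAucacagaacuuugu

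The others were Mir6353 in Pid1, Mir3095 in Lpar1, Gm51266 (miR-12180) in Osbpl8, Mir1936 in Itpk1, Mir5124a in Gcnt2 and Mir7091 in Dnase1l1. No 2 of the 7 hairpins lay in the same gene.

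By position, constant unacetylated regions looked like the other H3K4me1 regions with neither H3K4me3 nor H3K27ac, and unlike the constant distal regions that carried acetylation. Their median distance to the nearest annotated start was 19.2 kb (9244 regions; chromosome 18 has no entry in the start table used). It was 1.97 kb for the 3462 constant regions without H3K4me3 that had H3K27ac in at least 1 library, and 1.11 kb for the 1073 with H3K27ac in all 10. For the 121908 other regions that carried neither H3K4me3 nor H3K27ac and had H3K4me1 in 1 to 9 lists, called variable unacetylated regions below, it was 21.5 kb. Only 2.29% of constant unacetylated regions lay within 1 kb of a start, against 21.7%, 38.9% and 1.96% in those 3 classes. The rule split these classes by H3K27ac, a mark also found at promoters. The difference from the acetylated classes is therefore partly set by the rule. "Distal" in the sense of the rule means free of H3K4me3 peaks, and these 2.29% are close to a start by distance.

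**Figure D1:**
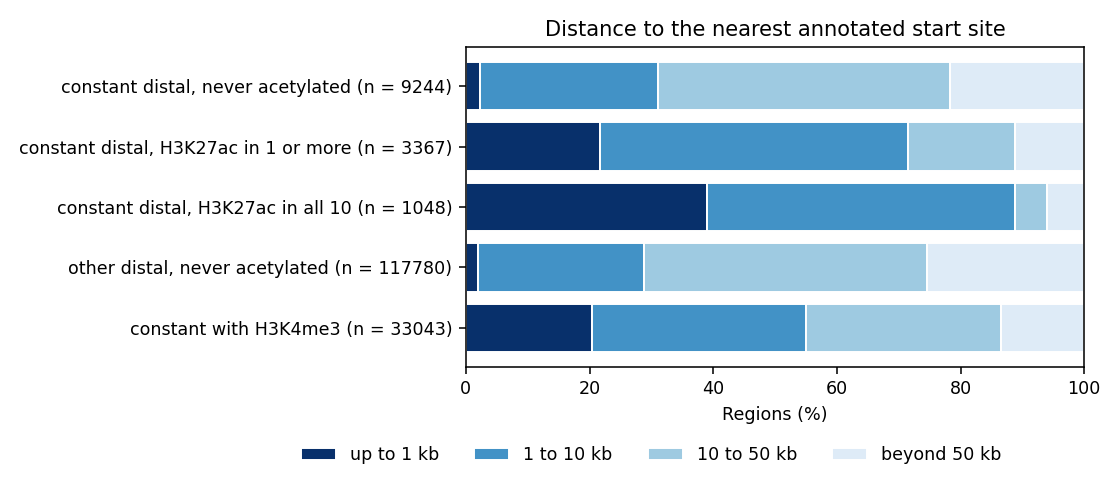
Share of regions (x axis, percent) by distance to the nearest annotated start site, for constant unacetylated regions (top bar) and 4 comparison classes; the third bar is a subset of the second, and chromosome 18 is left out. The top bar has 2.29% within 1 kb and 21.7% beyond 50 kb, close to the variable unacetylated regions (1.96% and 25.4%).

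Inside protein-coding gene spans lay 60.0% of constant unacetylated regions, against 59.7% of variable ones, 53.3% of constant distal regions with any acetylation and 37.8% of those acetylated in all 10 libraries. The median width was 1537 bp (quartiles 1311 and 2033, maximum 8477), against 1175 bp for variable regions, whose width grows with the number of lists in which they have a peak. On chromosome X lay 67 regions, 1.98% of its merged H3K4me1 regions, against 4.33% to 5.87% on chromosomes 1 to 19.

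Most regions stood alone: 83.7% had no other constant unacetylated region as a neighbour in a run. The longest runs held 5 regions, 1 in Ehmt1 (chr2:24896175-24911548), which encodes a histone H3K9 methyltransferase, and 1 beside Aplnr (chr2:85144609-85161282), the apelin receptor gene. Runs of 4 lay in Atp10a, Nt5e and Exoc2 and near Bcl11a, among other places. The regions farthest from any protein-coding gene lay 1073 kb from Cited2 (chr10:16649491-16651598), 834 kb from Myc (chr15:62823234-62825505) and 604 kb from Sall3 (chr18:81589656-81591585). The one 834 kb from Myc, the proto-oncogene, had 373 bp covered by the peaks of all 10 libraries.

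Constant presence did not always mean constant bases. In 7880 regions (82.6%) every library had exactly 1 peak. In 7528 (79.0%) at least 1 base was covered in all 10 libraries, with a median of 574 bp among them, and in 2007 no base was. The 5 widest regions, in Rrbp1, Dyrk1a, Atxn1 and Parp11 and near Blm, were 6899 to 8477 bp wide and none had a base common to all 10.

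The number of regions was limited most by Npm1c HSPC replicate 1, which had the shortest H3K4me1 list. Just outside the rule stood 7188 regions with H3K4me1 in 9 of 10 lists and neither other mark, and 3928 of them lacked the peak in that library alone; the next were DM replicates 1 and 2 (773 and 484) and neutrophil replicates 1 and 2 (730 and 634). Without that library 13463 regions passed, of which 57.4% lay in gene spans, with a median of 19.7 kb to a start. Another 542 constant regions without H3K4me3 had H3K27ac in exactly 1 library, most often DM replicate 1 (176) or Npm1c replicate 2 (122). Just inside the rule, 208 regions had an H3K27ac peak of some library within 200 bp, the nearest 1 bp away.

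The genes that held the most regions had varied roles. In all, 3082 of 21887 protein-coding genes (14.1%) had at least 1 region in their span. Foxp1 (chr6:98925342-99522746), a forkhead repressor needed in B-cell development, had 23 over 597 kb. Iqgap2, a cytoskeletal scaffold gene, had 18, Arid1b, a BAF chromatin remodelling subunit gene, 17, and Foxn3, another forkhead factor gene, 16. Maml3, a Notch coactivator gene, and Pde4d, a cAMP phosphodiesterase gene, had 14 each, and Vav3, a guanine nucleotide exchange factor gene, 13. Gnaq, a G protein alpha subunit gene, Chst11, a chondroitin sulfotransferase gene, and Runx1, the stem cell transcription factor gene, had 12 each; Slco3a1, Snx29, Vps13d and Xylt1 also had 12.

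These genes are long, and length alone admits more regions. Per length, among genes with at least 5, Chsy1 (chondroitin synthase) had 10.9 per 100 kb, Taf4 (a TFIID subunit) 9.30, Znrf1 (a ubiquitin ligase) 8.96, Kcmf1 (a ubiquitin ligase) 8.49 and Swap70 (a Rac-binding signalling protein) 8.09. Over all gene windows the value was 0.542 per 100 kb. Foxp1 had 3.85 and Runx1 5.34 per 100 kb. Of all merged H3K4me1 regions in the span, constant unacetylated ones were 23 of 206 in Foxp1, 12 of 83 in Runx1 and 6 of 17 in Taf4.

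Gene lists were counted with 10 kb added on each side of the span, where 4570 of 21887 genes (20.9%) had a region and the median gene had 0. Chromatin and DNA methylation regulators had a region at 14 of 20 genes, with a median of 2. Crebbp, a histone acetyltransferase gene, had 4 regions, and Ezh2 (the Polycomb H3K27 methyltransferase), Dnmt3a (a DNA methyltransferase) and Tet2 (a methylcytosine dioxygenase) had 3 each. B-lymphoid genes had a region at 9 of 15 (median 1), led by Bach2, a transcription repressor gene, with 9. Ebf1 and Rag2 had 1 each, and the same region was counted for both Vpreb1 and Igll1. Stem and progenitor genes had one at 9 of 20 (median 0): Runx1 and Etv6 12 each, and Erg and Fli1, both ETS factor genes, 4 each.

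Other blood lists were nearer the share over all genes. Megakaryocyte genes had a region at 5 of 13, with 4 in Vwf (von Willebrand factor) and 3 each in Itgb3 and Selp. T and NK genes had one at 4 of 16, among them Tcf7 with 2 and Cd3g and Lef1 with 1 each. Genes of the granulocyte-monocyte progenitor had one at 4 of 14, with 3 at Srgn, 2 at Elane (neutrophil elastase) and 1 each at Prtn3 and Ms4a3. The windows of Prtn3 and Elane overlap, and the region at Prtn3 is also counted at Elane. Monocyte genes had one at 3 of 12 (Cx3cr1, Ccr2, Mrc1), erythroid genes at 3 of 18 (3 in Bcl11a, 1 each in Sptb and Gfi1b) and mature neutrophil genes at 3 of 22 (2 at Mmp8, 1 each at Cxcr2 and Padi4). Without Npm1c replicate 1 in the rule, monocyte genes had one at 7 of 12, mature neutrophil genes at 6 of 22 and progenitor genes at 7 of 14, against 26.8% of all genes, so these 3 counts rest on that library.

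Lists of other tissues had fewer genes with a region than the 20.9% of all genes. Non-HOX developmental transcription factors had a region at 1 of 28 (Lhx9), neuronal genes at 2 of 22 (Cntnap2 and Dlg2), muscle and heart genes at 1 of 14 (Tnni3) and liver and kidney genes at 1 of 14 (Alb). Without Npm1c replicate 1 in the rule, neuronal genes had one at 4 of 22, muscle and heart genes at 2 of 14 and liver and kidney genes at 2 of 14, below the 26.8% of all genes. Housekeeping genes had a region at 4 of 14, among them Ywhaz with 2 and B2m and Sdha with 1 each. Windows differ in length and in how much H3K4me1 they hold, so the share of their H3K4me1 regions that were constant and unacetylated was also taken. It was 7.83% for chromatin regulators, 6.94% for megakaryocyte, 6.75% for B-lymphoid and 6.42% for stem and progenitor genes, against 4.28% for all genes. The remaining blood lists lay below that value. They stood at 4.05% for granulocyte-monocyte progenitor, 3.90% for T and NK, 2.88% for monocyte, 2.21% for erythroid and 1.90% for mature neutrophil genes. The share was 0.408% for HOX cluster and cofactor genes, 0.699% for developmental factor and 0.917% for neuronal genes. It was 1.01% for muscle and heart, 2.86% for liver and kidney and 4.27% for housekeeping genes. At the HOX list, 98.3% of constant regions carried H3K4me3 in at least 1 library, against 75.8% over all genes, and at the developmental factor list 96.7%.

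**Figure D2:**
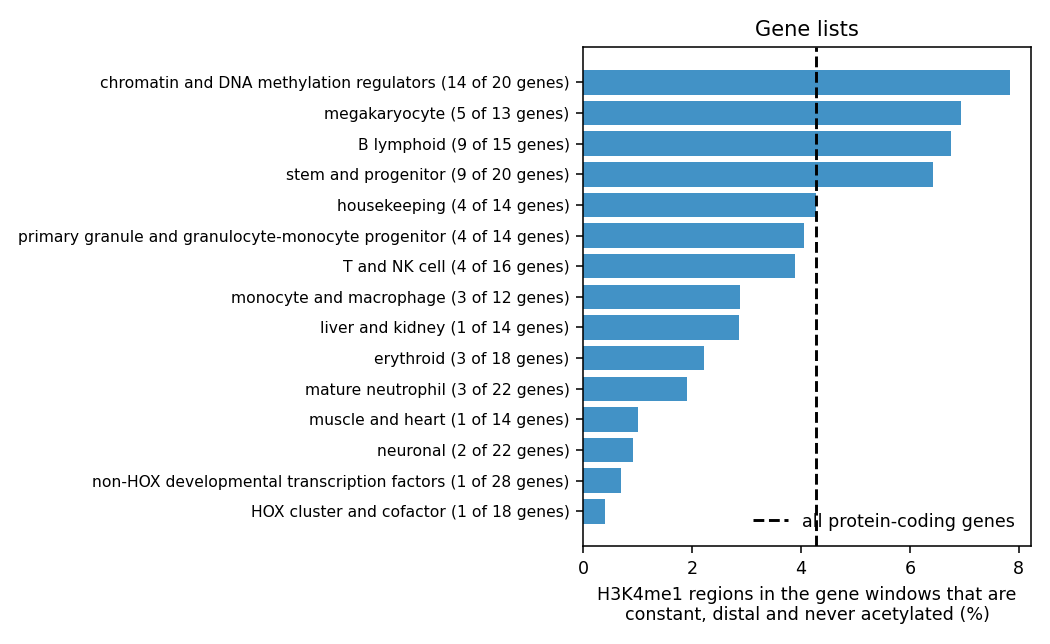
Share of merged H3K4me1 regions in the windows of each gene list (x axis, percent) that were constant and unacetylated; in brackets, genes with at least 1 such region. The dashed line is the value over all protein-coding genes, 4.28%, and the bars run from 0.408% (HOX) to 7.83% (chromatin regulators).

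On average over pairs of libraries, the place of the H3K4me1 peak inside the regions differed more between groups than between replicates. This did not hold for each group taken alone, as given below. Each library's mean peak centre was measured from the region midpoint, and the absolute distance between the centres of 2 libraries was averaged over the 9535 regions. This distance was 212 bp between libraries of the same group and 254 bp between libraries of different groups, a difference that no other pairing of the 10 libraries exceeded (exact permutation test, one-sided p = 0.00106, the smallest the design allows; Benjamini-Hochberg adjusted p = 0.0127 over 12 tests). Over the 8 HSPC libraries alone it was 220 against 240 bp (219.6 and 240.4; exact permutation p = 0.00952, again the smallest possible, adjusted p = 0.0286). The HSPC result rested on the WT and DM libraries: without WT replicate 1 or 2 the exact permutation p was 0.114 or 0.0571, and without DM replicate 1 or 2 it was 0.0857 or 0.0571.

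Pairs of replicates lay 182 bp apart in neutrophils, 198 in WT, 210 in DM, 223 in Flt3-ITD and 247 in Npm1c. From WT, the mean distance was 223 bp to Flt3-ITD, 227 to Npm1c, 246 to DM and 263 to neutrophils. Npm1c thus lay nearer WT than its own replicates lay to each other. Flt3-ITD lay about as far from WT as its own replicates lay apart. Npm1c replicate 1 lay far from every library, at 247 to 324 bp, while Npm1c replicate 2 lay at 207 and 196 bp from the WT libraries, about as near as these lay to each other. DM lay 234 bp from Flt3-ITD and 269 from Npm1c, and the ranges over single pairs (224 to 246 and 241 to 296) overlapped.

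**Figure D3:**
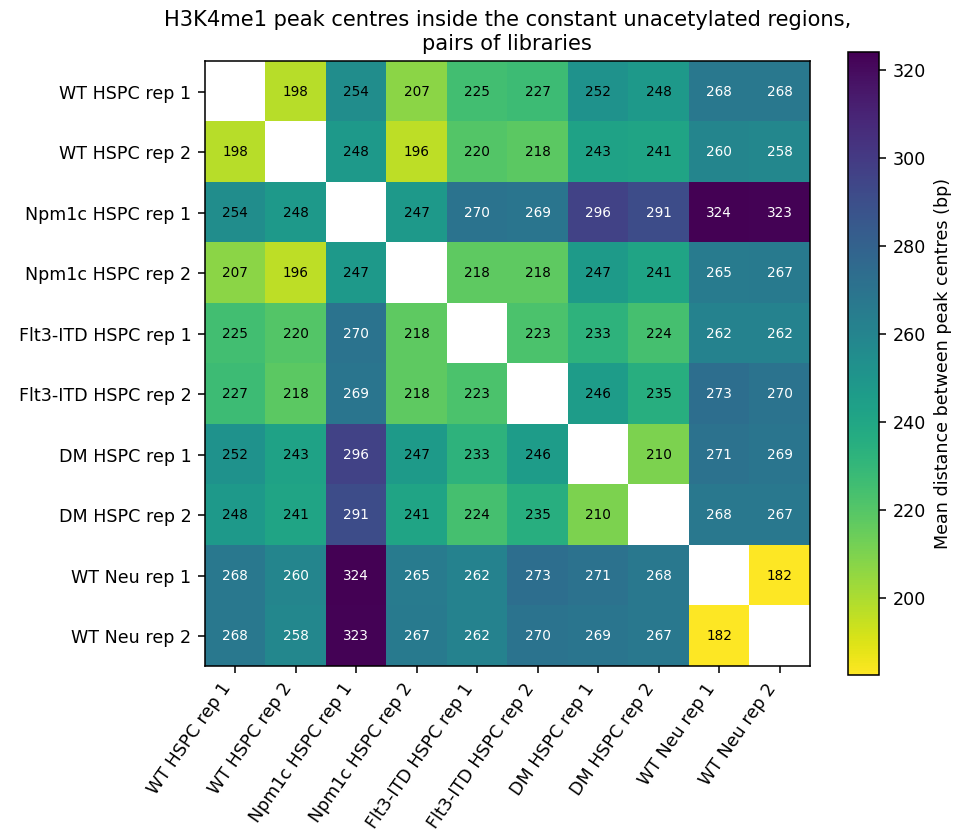
Mean distance in bp between the H3K4me1 peak centres of each pair of libraries, averaged over 9535 regions; both axes list the 10 libraries and colour gives the distance. The neutrophil pair (182 bp) and the WT pair (198 bp) are close together, and Npm1c replicate 1 stands apart from all others.

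Distances were shorter in the acetylated classes. For constant distal regions with H3K27ac in all 10 libraries the same distances were 124 bp within and 167 bp between groups, and with any H3K27ac 160 and 207 bp. Counting only regions with 1 peak per library gave 165 and 195 bp for constant unacetylated regions, 110 and 147 bp for those acetylated everywhere. Constant regions with H3K4me3 had 205 bp within and 262 bp between groups, near the 212 and 254 bp of the constant unacetylated regions. These classes were split by marks and no test between them was made.

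A few regions had the same place in all libraries and a few had places far apart. Among regions with 1 peak per library, the SD of the 10 centres had a median of 144 bp and ran from 15.0 to 1029 bp. The smallest was at chr7:30829289-30830331, 6.03 kb from Ffar2, a short-chain fatty acid receptor gene, where all centres lay within 43 bp. Next were regions near Kif5b and Cyth2 and in Col15a1 and Pcmtd1, with ranges of 52 to 72 bp. The largest was in Atg2b, an autophagy lipid transfer gene, followed by regions in Ccnd3 and Gbf1 and near Commd1 and Nlrp6.

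In the Atg2b region (chr12:105675818-105679673) centres lay at -468 and -1102 bp from the midpoint in WT, -1428 and -1018 in Npm1c, -158 and -576 in Flt3-ITD, 1083 and 1428 in DM, and 710 and 989 in neutrophils. All 4 DM and neutrophil values were to one side of all 6 others. This region and those in Gbf1 and Ccnd3 were picked for the spread of these same centres. The separation of groups in them is therefore a description. At Atg2b the call of DM against WT was lost in 8 of 14 alternative fits. That of DM against Npm1c was lost in 4 of 14. The DM difference from WT was 2041 ± 270 bp (SE; limma, Benjamini-Hochberg adjusted p = 0.0295) and that from Npm1c was 2478.5 ± 270 bp (limma adjusted p = 0.0161).

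In the Gbf1 region (chr19:46190747-46194170), inside a Golgi transport factor gene, centres lay at -1104 and -1187 bp in WT, -1212 and -1201 in Npm1c, 187 and -578 in Flt3-ITD, 150 and 10.0 in DM and 1212 and 868 in neutrophils. Neutrophils and WT lay at opposite ends, 2185.5 ± 239 bp apart (limma adjusted p = 0.00740). In Ccnd3, the cyclin D3 gene (chr17:47548011-47551689), they lay at 946.5 and 700.5 in WT, 1339.5 and 959.5 in Npm1c, -343.5 and -47.5 in Flt3-ITD, -316.5 and -410.5 in DM and -1186.5 and -1339.5 in neutrophils. Neutrophils differed from WT by -2086.5 ± 165 bp (limma adjusted p = 0.00447), and again the Npm1c values lay with WT. The neutrophil calls at Gbf1 and Ccnd3 were each lost in 1 of 14 alternative fits, the trend on region width.

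**Figure D4:**
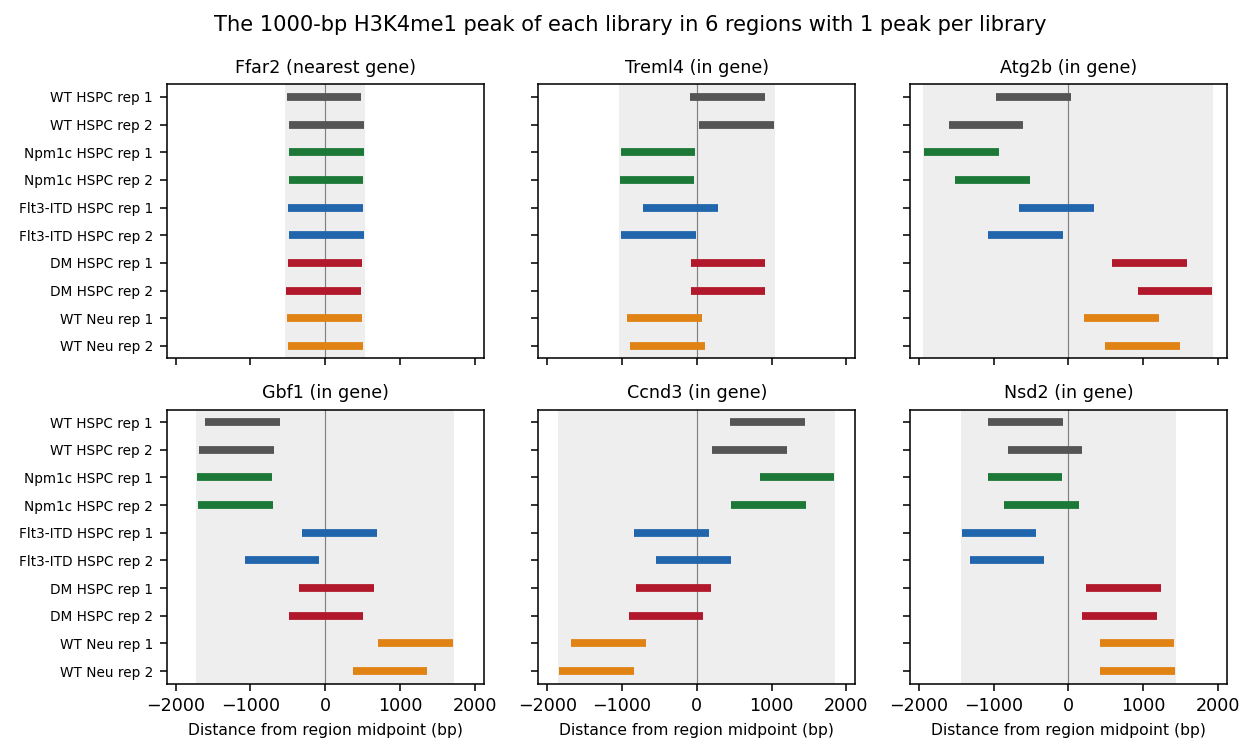
The H3K4me1 peak of each library (bars, 1000 bp, one row per library, coloured by group) against distance from the region midpoint (x axis, bp; grey band, the region) in 6 named regions with 1 peak per library. At Ffar2 the centres lie within 43 bp, and at Atg2b, Gbf1 and Ccnd3, picked for a wide spread of centres, the neutrophil peaks lie apart from those of WT HSPC.

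Single regions rarely passed a test across all 47001 constant H3K4me1 regions (limma on the peak centre, Benjamini-Hochberg adjusted p under 0.05). Against WT, 0 constant unacetylated regions were called in Npm1c (0.0255% of all constant regions; 645, or 6.76%, had an unadjusted p under 0.05, against 6.30% of all constant regions), 16 in Flt3-ITD (background 0.223%), 64 in DM (1.01%) and 265 in neutrophils (4.37%). DM differed from Npm1c at 90 regions (1.25%), from Flt3-ITD at 38 (0.496%), and the interaction of both mutations was called at 14 (0.145%). As a share of the 9535, these were 0.168%, 0.671%, 2.78%, 0.944%, 0.399% and 0.147% in the same order, at or below the background in all but the last, where they were close. When the variance was modelled as a trend on region width, 0 were called in all 7 comparisons, so the calls rest on a single variance prior for narrow and wide regions alike. The calls in Flt3-ITD were all lost without either WT library, Flt3-ITD replicate 1, or any one DM or neutrophil library, and not all without the others. Those in DM were all lost without WT replicate 1 and not all without any other library. Further, 2 libraries against 2 have no exact p below 0.333.

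Besides Atg2b, the largest called shifts against WT were in Ppard (-1616.75 bp), Mapk9 (-1204) and Treml4 (-836) in Flt3-ITD, in Chd6 (-2296.5) and 151 kb from Zfp36l2 (-1922.75) in DM, and in Ano10 (2822 bp) in neutrophils. In Chd6, a chromatin remodeller gene (chr2:161094721-161098409), centres lay at 1022.5 and 1071.5 bp in WT, 381.5 and 350 in Npm1c, 280 and 363 in Flt3-ITD, -1344.5 and -1154.5 in DM and -617.5 and 35.0 in neutrophils. The DM values were the lowest of all 10, and those of both single mutants lay between DM and WT (limma adjusted p = 0.00920 for DM against WT). Nsd2, a H3K36 methyltransferase gene (chr5:33843068-33845923), had centres at -928 and -823 in Flt3-ITD and 740 and 680 in DM, a difference of 1585.5 ± 114 bp (limma adjusted p = 0.0110). Sipa1l1 was named by the same rule for DM against Npm1c (-2078 bp).

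The rule required a peak in each library and almost all peaks are 1000 bp long, so the length of H3K4me1 peak per region starts at about 1000 bp and varies with further peaks. It averaged 1062 and 1061 bp in the WT libraries, 1059.6 and 1058 in Npm1c, 1069 and 1062 in Flt3-ITD, 1046 and 1048 in DM, and 1047 and 1045 in neutrophils. DM and neutrophil libraries were lowest and did not overlap the others. Their H3K4me1 lists were also short, at 104752 to 110489 peaks, against 116136 to 131179 in the other libraries except Npm1c replicate 1. That library had the shortest list, 102907 peaks, and 1059.6 bp per region. A link to list length was not tested. Replicates were closer to each other than other pairings of the 10 libraries (exact permutation p = 0.00423, adjusted p = 0.0254) and of the 8 HSPC libraries (exact permutation p = 0.0190, adjusted p = 0.0457; 0.0667 unadjusted without Npm1c replicate 2). Regions with more than 1 peak numbered 566 and 552 in WT and 425 and 443 in DM.

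Although no region overlapped H3K27ac, many lay near it. An H3K27ac peak lay within 5 kb of 19.1% and 19.4% of the regions in the WT libraries, 24.5% and 27.9% in Npm1c, 22.9% and 23.2% in Flt3-ITD, 26.7% and 20.1% in DM, and 23.5% and 24.3% in neutrophils. Both WT values were the lowest, and the DM replicates spanned most of the range. The grouping by genotype did not pass over the 10 libraries (exact permutation p = 0.236, adjusted p = 0.315), and it passed without DM replicate 1 (exact permutation p = 0.00635) or 2 (p = 0.0243). H3K27ac lists held 21704 to 30143 peaks, with Npm1c the longest. With lists of equal length (the widest peaks of each library) the exact permutation p was 0.366.

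Constant regions had H3K27ac nearby more often than variable unacetylated regions, by the H3K27ac peaks of each library. All 121908 variable regions were counted in every library, also those without an H3K4me1 peak in that library. Constant regions had one in each, so presence of H3K4me1 and constancy cannot be told apart in these shares and their ratios. The shares averaged over 10 libraries were 23.2% and 16.3%, a difference of 6.86 points (4.95 to 8.80), higher in 10 of 10 libraries. For H3K4me3 within 5 kb they were 35.8% and 27.3%, a difference of 8.53 points (7.17 to 9.99), again in 10 of 10. Both classes were set by peaks of these libraries, so the differences are a description with no test.

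The ratio of the 2 H3K27ac shares was 1.36 ± 0.0156 in WT, 1.37 ± 0.0600 in Npm1c, 1.45 ± 0.0361 in Flt3-ITD, 1.48 ± 0.0124 in DM and 1.45 ± 0.00169 in neutrophils (SD, n = 2 libraries). WT and DM did not overlap, but the grouping over all 10 libraries did not pass (exact permutation p = 0.0635, adjusted p = 0.109). For H3K4me3 the ratio was 1.29 ± 0.0183 in WT, 1.27 ± 0.0159 in Npm1c, 1.32 ± 0.00521 in Flt3-ITD, 1.34 ± 0.00284 in DM and 1.35 ± 4.64e-05 in neutrophils, and here replicates were closer than other pairings (exact permutation p = 0.00741, adjusted p = 0.0286), while over the 8 HSPC libraries the test did not pass (exact permutation p = 0.0476, adjusted p = 0.0952). Within 2 kb in place of 5 kb, that H3K4me3 p was 0.513.

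**Figure D5:**
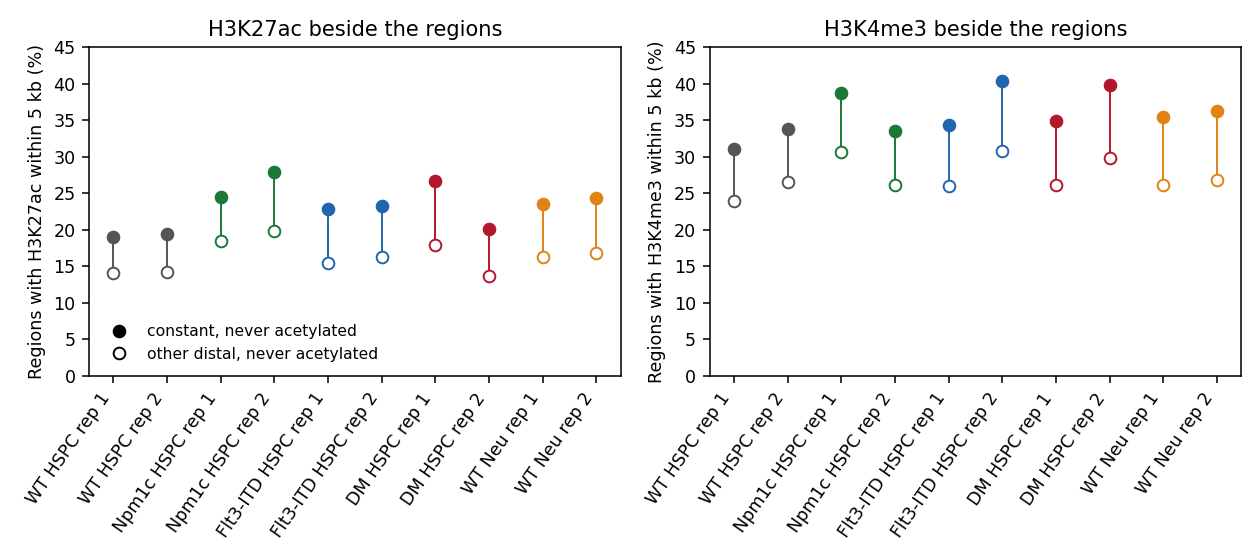
Share of regions (y axis, percent) with a peak of H3K27ac (left) or H3K4me3 (right) within 5 kb in each of the 10 libraries (x axis); filled points are constant unacetylated regions, open points variable ones, and lines join them. Filled points lie above open points in all 10 libraries, on average at 23.2% against 16.3% for H3K27ac.

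Over the 10 libraries together, 5707 regions (59.9%) had no H3K27ac within 5 kb in any library and 1247 (13.1%) had it in all 10. The median distance to the nearest H3K27ac peak of any library was 6.88 kb, and 650 regions (6.82%) had none within 50 kb.

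Some regions lay beside acetylation that differed between groups. A region was counted as beside gained acetylation when H3K27ac lay within 5 kb in both libraries of a group and in neither WT HSPC library, and as beside lost acetylation in the reverse case. Gains were found beside 338 regions (3.54%) in Npm1c, against 2.59% of all 131443 unacetylated distal regions; beside 252 (2.64% against 1.71%) in Flt3-ITD; beside 392 (4.11% against 2.74%) in DM; and beside 648 (6.80% against 5.28%) in neutrophils. Losses were found beside 2 regions (0.0210% against 0.0472%) in Npm1c, 77 (0.808% against 0.724%) in Flt3-ITD, 213 (2.23% against 2.35%) in DM and 288 (3.02% against 3.25%) in neutrophils. Shares of gains stood above the background in all 4 groups and shares of losses near it. All 4 comparisons use the same WT libraries, and constant regions have more H3K27ac nearby in every library, so no more is read from this. With H3K27ac lists cut to the same 21704 widest peaks, an alternative added after the data were seen, the Npm1c gains were 149 (1.56% against 1.08%) and its losses 21 (0.220% against 0.223%).

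Etv6 (chr6:134035700-134270158), which encodes an ETS repressor needed by adult stem cells, is one of the named genes whose counts differed between groups. Of 10 regions in its span, 2 and 1 had H3K27ac within 5 kb in the WT libraries, 4 and 7 in Npm1c, 4 and 3 in Flt3-ITD, 8 and 6 in DM, and 6 and 6 in neutrophils. The WT libraries were lowest, and all 10 regions had acetylation nearby in at least 1 library. Chst11 went the other way: of 12 regions, 6 and 6 had it in WT, 6 and 6 in Npm1c, 4 and 4 in Flt3-ITD, 2 and 2 in DM and 1 and 3 in neutrophils.

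Foxp1 varied less, with 6 and 6 of 23 in WT, 9 and 10 in Npm1c, 6 and 5 in Flt3-ITD, 9 and 7 in DM and 6 and 6 in neutrophils. Of the 12 regions in Runx1 (chr16:92601466-92826074), 2 and 1 had H3K27ac within 5 kb in WT, 4 and 4 in Npm1c, 3 and 3 in Flt3-ITD, 3 and 1 in DM, and 4 and 4 in neutrophils. The 3 regions in Fli1 and the 4 in Crebbp had none within 5 kb in any library. Regions beside 1 gene share their nearby peaks, and these counts were not tested.

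Nearby acetylation also differed at single regions near cell type genes, of which those given here were chosen after their values were seen. The region beside Cxcr2 (chr1:74146638-74148297), the neutrophil chemokine receptor gene, had its nearest H3K27ac peak at 1.21 and 1.14 kb in neutrophils and at 6.78 to 78.1 kb in HSPC libraries. At Gata2, the stem cell factor gene, the region chr6:88183745-88185106 had one at 4.25 and 4.36 kb in Npm1c, 8.85 and 8.70 in WT, 11.7 and 4.31 in Flt3-ITD, 17.0 and 17.6 in DM, and 98.6 and 98.5 in neutrophils. At Cd34, a progenitor surface antigen gene, the region chr1:194941385-194944306 had one within 1.89 to 2.17 kb in all 8 HSPC libraries and at 32.0 and 32.0 kb in neutrophils. At Gfi1b, an erythroid and megakaryocyte repressor gene, the region chr2:28610660-28612427 had one at 4.03 and 4.04 kb in WT, 3.16 and 3.75 in Npm1c, 6.58 and 5.43 in Flt3-ITD, 19.3 and 27.3 in DM and 27.4 and 27.4 in neutrophils. At Myb, a progenitor transcription factor gene, the order was not that of Cd34. The 3 regions lay nearer H3K27ac in neutrophils, at 15.6 to 25.2 kb, than in WT HSPC, at 28.9 to 38.8 kb. In Npm1c they lay at 24.9 to 33.8 kb in replicate 1 and, close to neutrophils, at 16.2 to 25.8 kb in replicate 2. In Flt3-ITD and DM they lay at 27.9 to 34.6 kb. In each of these regions the H3K4me1 peak was present in all 10 libraries, as the rule required, while the nearby acetylation differed.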

How the data were processed

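Per the submitters' processing notes, the authors aligned reads to mm10 with Bowtie2 2.1.0, used Picard, and called peaks with HOMER and MACS2; no source used here gives other versions or thresholds. The deposited values are of unit other: per the file headers and contents, 3 columns of peak coordinates for each of 30 libraries, with no score or count. HOMER peaks of H3K4me1 and H3K4me3 are 1000 bp long, bar 1 and 12 peaks, and H3K27ac peaks have a median of 522 bp, so depth is unknown. The 5 input samples were not used here.

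Peaks on chromosomes 1 to 19, X and Y were merged and overlapped (1 bp) with Python 3.11.15, NumPy 2.4.6 and pandas 2.3.3. Gene spans, start sites and sequences came from RefSeq tables of GRCm38.p6, the assembly of mm10. Peak centres of 47001 regions were fitted with limma 3.58.1 (R 4.3.3; Benjamini-Hochberg 0.05), which in simulated data on all 47001 regions called 20 of 100 shifts of 800 bp for DM against WT and 0 of 100 of 400 bp. Group differences were tested by exact permutation over 105 or 945 pairings (SciPy 1.17.1), 12 tests in all. Named genes were those with most regions (10), most per 100 kb (5), up to 4 per list, and regions by width, centre spread, shift, run and distance. The regions, lists and tests were chosen with earlier results of these data known. Some genes of the lists are not reported here. Alternatives are given at the end.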

Additional observations from a re-analysis of the deposited data

Results flagged for a closer look

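Regions whose change with Flt3-ITD differed between the WT and the Npm1c background, by the interaction term of the limma fit, numbered 14 of 9535 (Benjamini-Hochberg adjusted p under 0.05; 0.145% of all constant regions). The 3 largest were 2799 ± 211 bp in Ppard (chr17:28275841-28282242; limma adjusted p = 0.0232), -1854 ± 136 bp in the region 17.4 kb from Myom1 (chr17:71142928-71145627; limma adjusted p = 0.0227) and 1781.5 ± 146 bp in Treml4 (chr17:48269234-48271302; limma adjusted p = 0.0291).

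In Ppard, a nuclear receptor gene, H3K4me1 centres lay at 936.5 and 1122 bp from the region midpoint in WT, -140 and -112 in Npm1c, -706.5 and -468.5 in Flt3-ITD, and 1176.5 and 936 in DM. In Treml4, a myeloid receptor gene, they lay at 409.5 and 534.5 in WT, -520.5 and -534.5 in Npm1c, -217.5 and -510.5 in Flt3-ITD, and 417.5 and 418.5 in DM. In both, DM lay with WT and apart from the single mutants. Near Myom1 they lay at -30.5 and 17.5 in WT, 675 and 747 in Npm1c, 517 and 704 in Flt3-ITD, and -474 and -578 in DM, on the other side of WT from both single mutants. The adjusted p rose to 0.412, 0.453 and 0.204 at most in alternative fits, and the 14 calls became 0 under the replicate block, under the trend on width and without any one WT, DM or neutrophil library.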

How the results depend on the processing

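The number of regions, 9535, stayed within 1.5 times of that value in all alternatives, from joined peaks to leaving out single libraries. Leaving out a library can only add regions and gave 9604 to 13463. A stricter rule, with a base covered in all 10 libraries, lowered the number to 7528. The placement test over 10 libraries kept its direction and its side of 0.05 in each alternative run, and both differences from variable regions kept their direction. Leaving out 1 library gave a placement gap of 13.7 to 36.5 bp over HSPC, exact permutation p-values of 0.00952 to 0.0667 for bp per region (HSPC), 0.00635 to 0.468 (10 libraries) and 0.0190 to 0.438 (HSPC) for the H3K27ac share, 0.0169 to 0.146 and 0.0381 to 0.238 for the H3K27ac ratio, and 0.0190 to 0.105 for the H3K4me3 ratio (HSPC, 0.0476 with all). With 10 kb the H3K27ac ratio had an exact permutation p = 0.0180 (10 libraries) and 0.0381 (HSPC), and with 2 kb the H3K4me3 ratio had 0.513 and 0.819. The share in gene spans was 57.4% without Npm1c replicate 1.

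Within 2 kb, gained H3K27ac lay beside 134 regions in Npm1c, 78 in Flt3-ITD, 128 in DM and 261 in neutrophils. These were 1.41%, 0.818%, 1.34% and 2.74%, against 1.35%, 0.755%, 1.21% and 2.40% of all unacetylated distal regions. The shares lay closer to the background than within 5 kb. Lost H3K27ac lay beside 1, 31, 86 and 124 in the same order. These were 0.0105%, 0.325%, 0.902% and 1.30%, against 0.0266%, 0.358%, 1.06% and 1.49% of all unacetylated distal regions. Within 10 kb losses were 7 in Npm1c (0.0734% against 0.0548%) and 441 in neutrophils (4.63% against 4.80%). With equal lists Npm1c had 149 gains (1.56% against 1.08%) and 21 losses (0.220% against 0.223%).

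For called shifts in peak centre, the replicate block gave 0 in Flt3-ITD and for the interaction. In DM it gave 27 (0.283%, against 0.449% of all constant regions). It gave 35 for DM against Npm1c (0.367% against 0.494%), 6 for DM against Flt3-ITD (0.0629% against 0.0808%) and 205 in neutrophils (2.15% against 3.32%). Deviations of same-numbered libraries correlated at -0.0212 to 0.0119, so the pairing by number is a number only. The trend on width gave 0 in all 7 comparisons. The robust fit gave 6 in Flt3-ITD. Regions with 1 peak per library gave 5 in Npm1c and 9 for the interaction. Leaving out 1 library gave 0 to 59 in Npm1c, 0 to 17 in Flt3-ITD, 0 to 98 in DM, 87 to 301 in neutrophils, 23 to 211 for DM against Npm1c, 0 to 40 for DM against Flt3-ITD and 0 to 44 for the interaction. The cause was not tested.

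Without depth or scores, a weak peak and an absent one cannot be told apart, and constancy depends on the shortest list. Acetylation below the caller's threshold is counted as absent.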
